A study of Mus musculus with 9 samples.

Results

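The collagen genes of mouse embryonic fibroblasts (MEFs, primary connective tissue cells grown from midgestation embryos) were taken as every row of the normalized count table whose gene symbol is Col, a number, the letter a and a number. This rule found 34 of the 15184 genes of the table, and no measured value entered it. Of the 44 collagen genes annotated in GRCm39 (GENCODE vM39), the other 10 (*Col10a1*, *Col13a1*, *Col22a1*, *Col24a1*, *Col26a1*, *Col4a4*, *Col6a5*, *Col6a6*, *Col8a2* and *Col9a1*) were not analysed here. The members were 10 fibrillar, 5 basement membrane and 4 beaded filament collagen genes, 7 genes of fibril-associated collagens (FACITs), 3 transmembrane collagen genes, 2 multiplexin genes, 1 network-forming gene (*Col8a1*), 1 anchoring fibril gene (*Col7a1*) and 1 gene outside these classes (*Col28a1*). PolyA+ RNA was sequenced in 9 libraries, 3 named Empty, 3 named SAM1 and 3 named SAM2, and the question asked of them here is how the collagen genes differ between these groups.

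Empty libraries carry the genotype label Empty vector, and SAM1 and SAM2 libraries the genotype label Hnrnpk_SAM. SAM is the synergistic activation mediator, in which a guide RNA brings a catalytically dead Cas9 and activator proteins to a promoter. Here the target was *Hnrnpk*, the gene of the RNA-binding protein hnRNP K. In the study's methods, wild-type MEFs were transduced with the lentiviral plasmids lentiMPHv2 and lentiSAMv2 and selected with blasticidin and hygromycin, and the control carried lentiSAMv2 with a nontargeting guide. All groups therefore share lentiSAMv2, the only plasmid the methods name for the control. More than one *Hnrnpk* guide was used, but the labels do not say which one SAM1 or SAM2 carries, and the methods print the same letters for the second guide and for the nontargeting control. The cells used were those that survived drug selection, and the study describes gains of chromosomes in its *Hnrnpk*-activated cells. SAM1 and SAM2 are called the 2 lines below. The cells grew in DMEM with 10% fetal bovine serum.

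Collagens are extracellular proteins built as trimers of alpha chains, each chain being the product of a collagen gene. Fibrillar collagens (types I, II, III, V, XI and XXVII here) are cleaved outside the cell and assemble into the rope-like fibrils that give connective tissue its tensile strength. Type IV collagen forms the sheet-like network of basement membranes, and type VI collagen forms beaded filaments around cells. FACITs sit on the surface of fibrils, and multiplexins and type VII collagen lie in or next to basement membranes. Fibroblasts are the main source of types I, III, V and VI in the body, while type II is the fibrillar collagen of cartilage.

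*Hnrnpk* itself was not called higher in SAM1 or SAM2. The SAM1 libraries lay below Empty, and the SAM2 libraries only just above it, without overlap. Its normalized counts were 25058 to 26164 in the Empty libraries, 23619 to 24102 in those labelled SAM1 and 26221 to 26859 in those labelled SAM2. The log2 fold change against Empty was −0.11 (SE 0.027, adjusted p = 0.00252) in SAM1 and 0.044 (SE 0.027, adjusted p = 0.159) in SAM2. SAM1 and SAM2 are therefore names of labelled libraries in all that follows, and each direction given is that of the libraries so labelled. All 10 fibroblast markers on the list used here were present in the table, and their summed normalized counts were 215004 to 222130 in Empty, 235328 to 244401 in SAM1 and 182304 to 184602 in SAM2. These sums hide members that moved apart. In SAM1 4 were called higher (*Vim* 0.55, *S100a4* 1.30) and 5 lower (*Dcn* −2.12, *Thy1* −0.67, *Pdgfra* −0.60). In SAM2 2 were called higher and 6 lower. *Fap*, among those higher in both lines, had a mean of only 6.47 in Empty. Over all genes of the table, 37.3% were called higher and 36.9% lower in SAM1, and 35.2% higher and 35.3% lower in SAM2. Reads on the listed genes, recovered in 8 libraries, numbered 41759636 to 49026626, so depth differed little between them. The labels do not say whether the 3 libraries of a group came from separate cultures, and p-values here measure the spread between these libraries, which may be technical. That spread was unequal between groups. The mean chi-square per gene between recovered libraries was 11.5 to 13.8 in Empty, 1.46 to 9.49 in SAM1 and 2.33 in SAM2, smaller values being nearer to counting error alone. The fit used a spread shared by the 3 groups. In bulk RNA, fewer cells of a type and less RNA per cell cannot be told apart.

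The upstream sequences of the chains on which several results turn are shown first, because these genes share a trimer or a chromosomal start region. Within them *Col6a1* and *Col6a2* moved together while *Col6a3* did not follow, and *Col4a5* fell relative to *Col4a6* in both lines. RefSeq promoter windows (GRCm38.p6) were matched for 27 of the 34 members, and the 7 unmatched were *Col1a1*, *Col2a1*, *Col4a3*, *Col5a2*, *Col9a3*, *Col12a1* and *Col14a1*. Each run below is the 250 bases before the annotated start, 5′ to 3′ on the gene's own strand. Capitals mark CCAAT (the CCAAT box) and GGGCGG (a GC box), on either strand, the latter read as CCGCCC on the other strand. *Col4a5* (chrX:141475169-141475418, plus strand) and *Col4a6* (chrX:141474077-141474326, minus strand) are transcribed away from each other, and in GRCm39 their genes lie 1281 bases apart. *Col6a1* (chr10:76726045-76726294, minus strand), *Col6a2* (chr10:76623405-76623654, minus strand, the nearer to the gene's body of 2 listed windows) and *Col6a3* (chr1:90843972-90844221, minus strand) encode the chains of the classical type VI trimer.
Col4a5: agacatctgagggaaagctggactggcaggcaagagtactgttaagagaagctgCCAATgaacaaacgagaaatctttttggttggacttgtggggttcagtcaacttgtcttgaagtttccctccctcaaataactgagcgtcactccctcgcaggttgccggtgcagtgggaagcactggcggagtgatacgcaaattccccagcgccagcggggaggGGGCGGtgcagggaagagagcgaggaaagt
Col4a6: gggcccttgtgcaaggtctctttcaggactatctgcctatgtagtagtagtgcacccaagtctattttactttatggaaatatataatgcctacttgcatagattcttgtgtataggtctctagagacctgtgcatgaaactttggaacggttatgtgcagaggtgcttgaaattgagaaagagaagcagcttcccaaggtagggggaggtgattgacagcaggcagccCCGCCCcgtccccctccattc
Col6a1: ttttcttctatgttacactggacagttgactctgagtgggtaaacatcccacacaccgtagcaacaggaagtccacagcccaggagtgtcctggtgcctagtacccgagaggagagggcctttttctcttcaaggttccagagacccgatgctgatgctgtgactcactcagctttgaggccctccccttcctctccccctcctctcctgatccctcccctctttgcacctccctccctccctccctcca
Col6a2: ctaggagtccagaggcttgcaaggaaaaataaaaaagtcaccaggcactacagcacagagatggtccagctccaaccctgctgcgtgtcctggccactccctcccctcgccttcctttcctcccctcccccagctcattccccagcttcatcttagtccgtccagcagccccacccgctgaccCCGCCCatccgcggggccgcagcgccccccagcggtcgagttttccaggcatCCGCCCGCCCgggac
Col6a3: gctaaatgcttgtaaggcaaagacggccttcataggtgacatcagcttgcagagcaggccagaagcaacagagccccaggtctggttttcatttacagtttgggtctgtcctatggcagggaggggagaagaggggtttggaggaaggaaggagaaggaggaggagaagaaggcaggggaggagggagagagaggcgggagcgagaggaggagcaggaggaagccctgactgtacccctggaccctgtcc

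Over the 29 windows of the 27 matched members, CCAAT was found in 12 (41.4%), GGGCGG in 19 (65.5%) and TATAAA, the core of a TATA box, in 3 (10.3%). Over all 32851 RefSeq promoter windows the shares were 33.8%, 32.7% and 12.4%. Those windows were not limited to genes of the normalized count table, so the 2 sets are not alike. None of these motifs was found in the *Col6a1* and *Col6a3* windows shown, which says only that these letters are not in these bases. The matches are descriptions of the windows and not binding sites. *Col4a1* and *Col4a2* also start from a shared region, on opposite strands of chromosome 8, and overlap by 356 bases in GRCm39.

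The collagen genes together took 1.46 ± 0.043% (SD, n = 3) of all normalized counts in Empty, 1.31 ± 0.016% in SAM1 and 1.88 ± 0.029% in SAM2. No library of one group reached the range of another. Within the collagen counts, the fibrillar class held 81.0 ± 0.75% in Empty, 73.1 ± 0.42% in SAM1 and 74.5 ± 0.30% in SAM2. The basement membrane class held 7.97 ± 0.30% in Empty, 15.1 ± 0.15% in SAM1 and 15.7 ± 0.14% in SAM2. The beaded filament class held 7.69 ± 0.33%, 6.68 ± 0.10% and 5.95 ± 0.064% in the same order. The libraries of the groups did not overlap in any of the 12 comparisons made of these shares, for which a two-sided exact permutation test gave p = 0.10 each (adjusted 0.10), the smallest p that 3 libraries against 3 allow. Both lines thus had a larger basement membrane share and a smaller fibrillar share of the collagen counts than Empty in every library. Most basement membrane counts were those of *Col4a1* and *Col4a2*, with means of 24499 and 20140 in Empty within a class sum of 56938. *Col4a5* of the same class went the other way, from a mean of 11407 in Empty to 4206 in SAM1 and 10009 in SAM2. The collagen total was lowest in SAM1 and highest in SAM2. As a percent of all normalized counts, the fibrillar class was 1.19 in Empty, 0.957 in SAM1 and 1.40 in SAM2. Its smaller share in SAM2 thus went with a higher class total. The beaded filament class was 0.113, 0.0875 and 0.112 in the same order. These shares count reads and so weigh long transcripts more than short ones. They also follow the most abundant genes. The fibrillar sum was 579234 normalized counts in Empty and 637623 in SAM2, where *Col1a1* alone had means of 221562 and 290176. Of the 10 fibrillar genes, 6 were called higher and 3 lower in SAM2, against 35.2% and 35.3% of all genes.

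**Figure D1:**
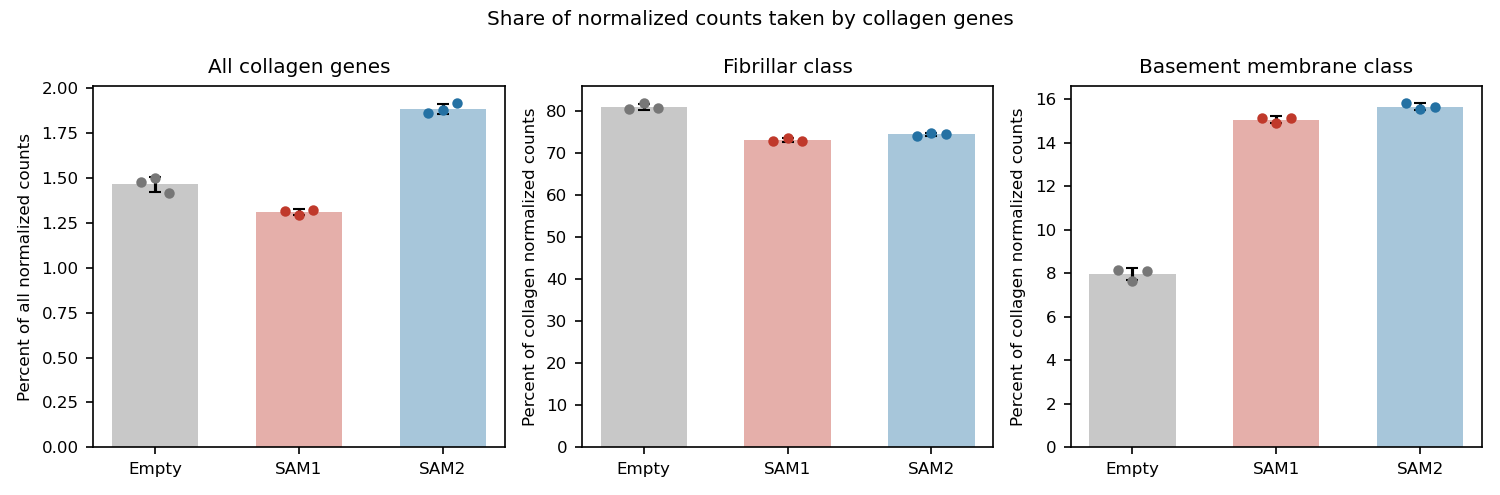
Share of normalized counts in collagen genes for each library (points), with the group mean (bar) and SD (error bar, n = 3): all collagen genes as a percent of all normalized counts, and the fibrillar and basement membrane classes as a percent of collagen counts. The basement membrane share is 7.97% in Empty and 15.1% and 15.7% in SAM1 and SAM2, and the total is lowest in SAM1.

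Between SAM1 and Empty, 18 collagen genes were called higher, 13 lower and 3 were not called at an adjusted p of 0.05 (limma on log2 of the value plus 1, adjusted over all genes). The background of calls in this comparison was 74.3% of all listed genes, with 37.3% called higher and 36.9% lower, against which the 31 calls were 91.2% of the members. The libraries of the groups did not overlap for 30 members, where the background was 74.4%. The median log2 fold change was 0.38 over the 34 genes and 0.0093 over all 15184 genes. In 18 of the 34 the call came with an absolute log2 fold change of at least 1, against 17.8% of all genes. Between SAM2 and Empty, 19 were called higher, 9 lower and 6 were not called, where 70.5% of all genes were called, 35.2% higher and 35.3% lower. The 28 calls were 82.4% of the members, and libraries did not overlap for 30 of them, against 73.5% of all genes. The median was 0.45 against −0.0015 over all genes, and 12 calls had a log2 fold change of at least 1 in size, against 13.3% of all genes. The comparisons of SAM1 and of SAM2 with Empty use the same 3 Empty libraries. Without the 4 members that had no library above 10 in Empty (*Col4a3*, *Col9a2*, *Col14a1* and *Col15a1*), which passed the authors' filter only through the other groups, the counts were 14 higher and 13 lower in SAM1 with a median of 0.0020, and 15 higher and 9 lower in SAM2 with a median of 0.21. The positive median in SAM1 thus rested on those 4 genes. Among the remaining 30, calls with a log2 fold change of at least 1 in size numbered 14 in SAM1 and 9 in SAM2. Libraries did not overlap for 26 of the 30 in each line. With quantile normalization 12 collagen genes were called higher and 12 lower in SAM1.

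Between SAM2 and SAM1, which share no control, 19 collagen genes were called higher in SAM2, 8 lower and 7 were not called, against a background of 60.3% called, 31.1% higher and 29.2% lower. Libraries did not overlap for 31 members, against 68.2% of all genes, and 7 calls had a log2 difference of at least 1 in size, against 9.54% of all genes. The median difference was 0.38 on the log2 scale, against −0.0075 over all genes, and it was 0.38 without the 4 low members as well. Of the 10 fibrillar genes, 9 were higher in SAM2 than in SAM1 and *Col2a1* was lower. The multiplexin genes *Col15a1* and *Col18a1* and the transmembrane genes *Col17a1* and *Col23a1* were lower in SAM2.

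The most abundant collagen RNAs were those of type I. *Col1a1* (chr11:94827050-94843868), the chain present in every type I trimer, had 224137, 232100 and 208450 normalized counts in the Empty libraries, 178479, 171059 and 176656 in SAM1, and 283194, 289752 and 297582 in SAM2. The 3 groups did not overlap, with SAM1 lowest and SAM2 highest. Its log2 fold change was −0.34 (SE 0.0395, adjusted p = 4.36e-06) in SAM1 and 0.39 (SE 0.0395, adjusted p = 1.17e-06) in SAM2, but with quantile normalization the value in SAM1 was 0.074 and was not called. *Col1a2* (chr6:4504814-4541555), which encodes its partner chain, had 237248, 245190 and 230326 in Empty, 172105, 170125 and 171949 in SAM1, and 240691, 243133 and 246634 in SAM2. Here SAM1 lay below both other groups and SAM2 overlapped Empty. Its log2 fold change was −0.47 (SE 0.030, adjusted p = 9.50e-09) in SAM1 and 0.036 (SE 0.030, adjusted p = 0.305) in SAM2, the latter turning to −0.034 with quantile normalization. *Col3a1* (chr1:45350698-45395840), the homotrimeric fibrillar collagen of elastic tissues, had 25713, 25983 and 24803 in Empty, 17425.5, 17669 and 17629 in SAM1, and 26424, 26680.0 and 26931 in SAM2. SAM1 was again the lowest group (log2 fold change −0.54, SE 0.026, adjusted p = 5.62e-10). In SAM2 the value was 0.065 (SE 0.026, adjusted p = 0.0387), a call that was lost under edgeR, under DESeq2 and on leaving out any one of 6 of the 9 libraries (Empty replicate 3, SAM1 replicate 1 or 3, or any SAM2 replicate), with adjusted p between 0.0532 and 0.154.

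The type V chains, which regulate the diameter of type I fibrils, did not move together. *Col5a2* (chr1:45412554-45542442) had 59545.5, 59232 and 58504 in Empty, 26552, 25942.5 and 26499 in SAM1, and 40696.5, 40704 and 41106 in SAM2. It fell by 1.17 (SE 0.024) in SAM1 and by 0.53 (SE 0.024) in SAM2 on the log2 scale, with adjusted p = 1.55e-13 and 4.28e-10. *Col5a1* (chr2:27776397-27929526) had 33304, 32373 and 31888 in Empty, 23564, 22777 and 23893 in SAM1, and 29557, 29737 and 30875.5 in SAM2. Its log2 fold change was −0.47 (SE 0.030, adjusted p = 7.57e-09) in SAM1. In SAM2 it was −0.11 (SE 0.030, adjusted p = 0.00389), and with quantile normalization it turned to 0.089 and was called in that direction (adjusted p = 0.0203), so no direction is given for SAM2. *Col5a3*, a chain of a rarer type V trimer, had 1815, 1837 and 1685 in Empty, 1735, 1689 and 1783 in SAM1, and 2639, 2681 and 2786 in SAM2. SAM1 overlapped Empty (−0.035, SE 0.041, adjusted p = 0.460), and SAM2 lay above both (0.60, SE 0.041, adjusted p = 2.42e-08).

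*Col3a1* and *Col5a2* are neighbours, 16713 bases apart on chromosome 1, where the other 14 listed genes within 2 Mb had a median log2 fold change of −0.44 in SAM1 and −0.39 in SAM2. The median over the 860 other listed genes of chromosome 1 was −0.22 in SAM1 and −0.18 in SAM2. *Col3a1* thus lay below the median of its neighbourhood in SAM1 (−0.54) and above it in SAM2 (0.065), and *Col5a2* (−1.17 and −0.53) lay below it in both lines. The part of the neighbourhood in these values was not tested.

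*Col2a1* (chr15:97873483-97902689), the main collagen of cartilage, had the largest change among the 34 collagen genes. It had 183, 187 and 178 normalized counts in Empty, 6485, 6449 and 6653 in SAM1, and 1919, 1923 and 2009.75 in SAM2. The groups were far apart, and SAM2 lay between the others. The mean was 35.8-fold higher in SAM1 and 10.7-fold higher in SAM2 than in Empty, with log2 fold changes of 5.15 (SE 0.038, adjusted p = 9.87e-18) and 3.41 (SE 0.038, adjusted p = 6.51e-16). SAM2 was lower than SAM1 by 1.74 (SE 0.038, adjusted p = 1.23e-12). Other listed genes within 2 Mb (72 genes) had a median of 0.32 in SAM1 and 0.33 in SAM2.

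Of 8 chondrocyte markers, 5 were present in the table. *Sox9*, the transcription factor of chondrocyte fate, had log2 fold changes of 1.83 (SE 0.034, adjusted p = 5.39e-14) in SAM1 and 0.43 (SE 0.034, adjusted p = 9.47e-08) in SAM2. *Sox5* (1.92 and 0.31), *Acan* (aggrecan, 2.94 and 1.21) and *Matn3* (matrilin, 2.92 and 2.94) were also called higher in both, from means of 42.8, 11.3 and 0.740 normalized counts in Empty. *Matn3* passed the authors' filter only through the other groups, which favours a call higher. *Comp* (cartilage oligomeric matrix protein) was lower (−1.28 and −0.61). In each line 4 of the 5 were thus called higher and 1 lower. Of all genes, 37.3% were called higher and 36.9% lower in SAM1, and 35.2% and 35.3% in SAM2. The summed level of the 5 was 1862 to 1935 in Empty, 6388 to 6568 in SAM1 and 2448 to 2602 in SAM2, most of it *Sox9*. *Sox6*, *Matn1* and *Hapln1* were not analysed here. The part of these cells or genes in the rise of *Col2a1* was not tested.

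Type XI collagen nucleates fibrils together with type II in cartilage and with type V elsewhere, and its chains moved in opposite directions. *Col11a1* (chr3:113824134-114014367) had 414, 403 and 405 in Empty, 884, 858 and 857 in SAM1, and 1172, 1135 and 1162 in SAM2. Each line lay above Empty and SAM2 above SAM1. The log2 fold changes were 1.09 (SE 0.042, adjusted p = 5.55e-11) and 1.5015 (SE 0.042, adjusted p = 4.17e-12). *Col11a2* (chr17:34258108-34285664) had 330.4, 353 and 332 in Empty, 122, 112 and 113 in SAM1, and 207, 214 and 205 in SAM2. Both lines lay below Empty, by −1.54 (SE 0.072, adjusted p = 4.07e-10) and −0.69 (SE 0.072, adjusted p = 1.55e-06). *Col27a1*, a fibrillar collagen of developing cartilage, had 237, 284 and 262 in Empty, 281, 325 and 311 in SAM1, and 409, 343 and 367 in SAM2. SAM1 overlapped Empty (0.23, SE 0.088, adjusted p = 0.0317), and this call was lost on leaving out Empty replicate 1 or 3 or SAM1 replicate 2 or 3, with quantile normalization (0.067) and under DESeq2. SAM2 was higher (0.51, SE 0.088, adjusted p = 0.000154).

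**Figure D2:**
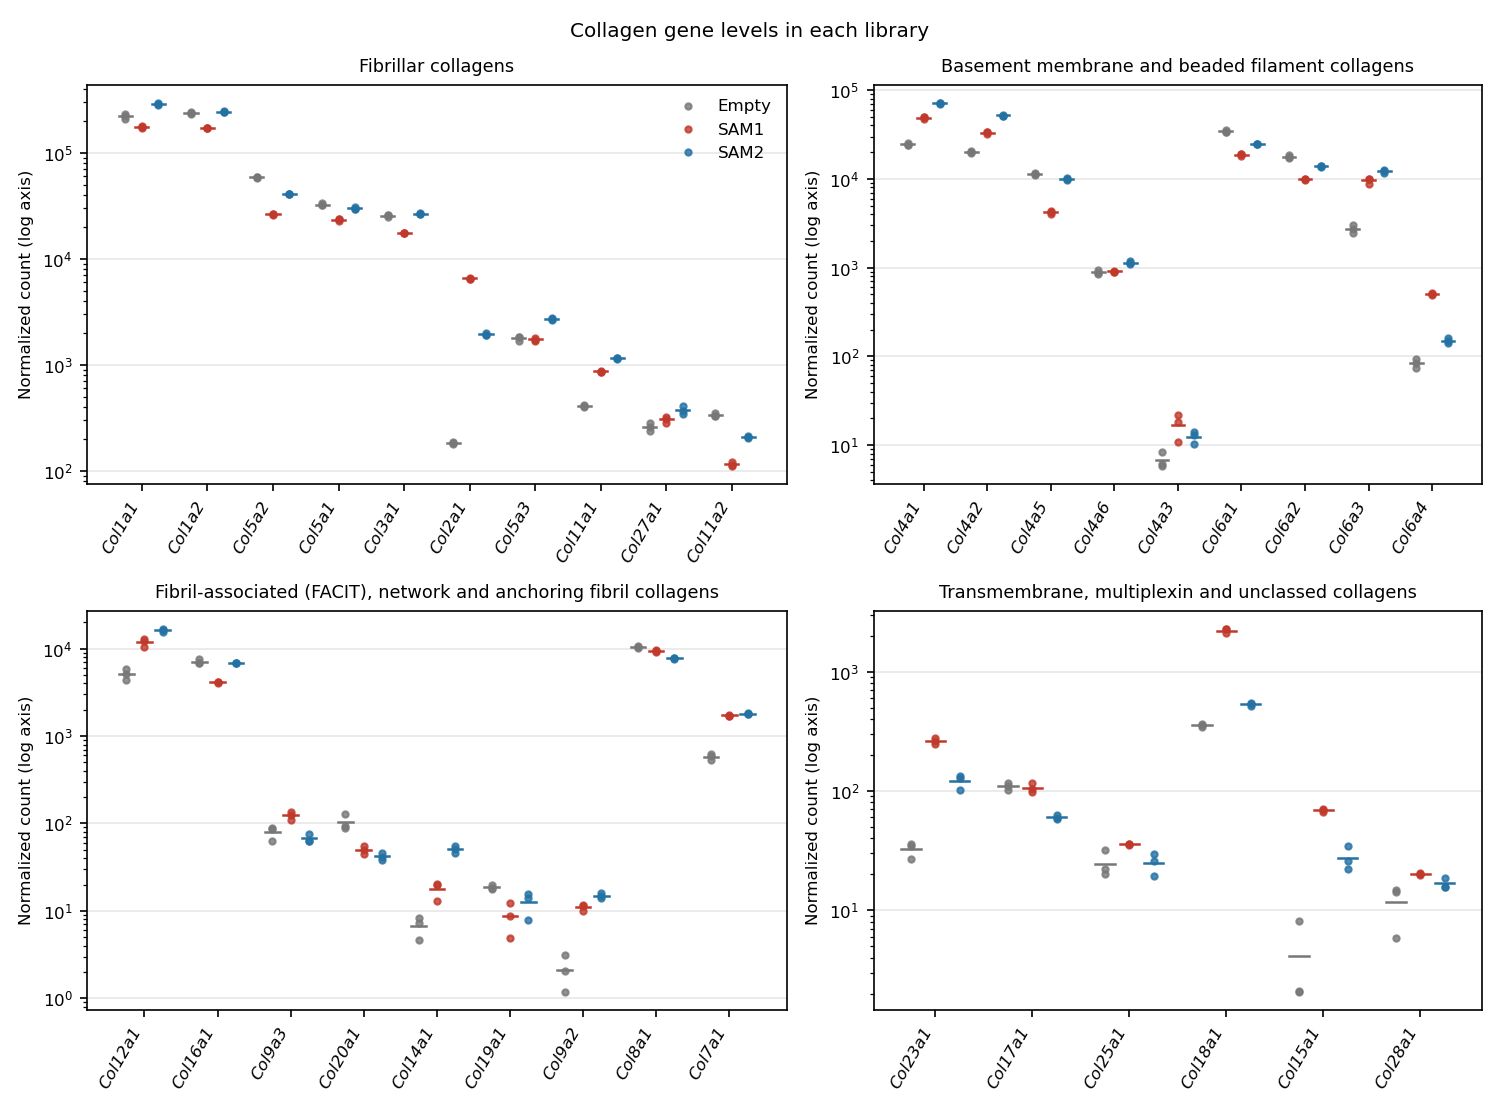
Normalized counts (log axis) of the 34 collagen genes in each library (points; short lines are group means, n = 3), by class. *Col2a1* spans from 183 in Empty to 6529 in SAM1 in mean, whereas *Col1a1* is 1.31-fold higher in SAM2 than in Empty.

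Type IV collagen is made of a few trimer kinds, of which the one encoded by *Col4a1* and *Col4a2* is found in nearly all basement membranes. *Col4a1* (chr8:11248423-11362826) had 25497, 24105 and 23896 normalized counts in Empty, 49658, 47651 and 49703 in SAM1, and 71009.5, 70296 and 72266.5 in SAM2. Its mean was 2.00-fold higher in SAM1 and 2.91-fold higher in SAM2, as log2 fold changes 1.0005 (SE 0.031, adjusted p = 6.92e-12) and 1.54 (SE 0.031, adjusted p = 2.34e-13). *Col4a2* (chr8:11362471-11499287) had 20856, 19729.9 and 19833 in Empty, 33925, 31845 and 33886 in SAM1, and 51633, 51130.1 and 52616 in SAM2. It rose by 0.72 (SE 0.033, adjusted p = 2.66e-10) and 1.36 (SE 0.033, adjusted p = 9.91e-13) on the log2 scale. Both chains showed the same order, with Empty lowest and SAM2 highest and no overlap, and SAM2 exceeded SAM1 by 0.54 and 0.64 (SE 0.031 and 0.033, adjusted p = 9.71e-09 and 2.87e-09). The 24 listed neighbours of *Col4a1* within 2 Mb had a median of 0.094 in SAM1 and 0.076 in SAM2.

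The X-linked type IV chains, whose upstream bases are shown above, went another way. *Col4a5* (chrX:140258354-140472231), the chain affected in X-linked Alport syndrome, had 11769, 10999.9 and 11451 in Empty, 4283, 4014 and 4322 in SAM1, and 10009.7, 9764 and 10254 in SAM2. SAM1 was far below the other groups, and SAM2 just below Empty without overlap. The log2 fold changes were −1.44 (SE 0.036, adjusted p = 8.77e-13) and −0.19 (SE 0.036, adjusted p = 0.000414), and SAM2 exceeded SAM1 by 1.25 (SE 0.036, adjusted p = 1.43e-11). *Col4a6* (chrX:139948399-140257072), its divergent neighbour, had 937, 864 and 855 in Empty, 921, 899.6 and 902 in SAM1, and 1102, 1177 and 1113 in SAM2. SAM1 overlapped Empty (0.036, SE 0.047, adjusted p = 0.495, and −0.00077 with quantile normalization), and SAM2 lay above both (0.35, SE 0.047, adjusted p = 1.57e-05). The 17 listed neighbours of *Col4a5* within 2 Mb had a median of −0.10 in SAM1 and 0.0074 in SAM2.

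*Col4a3*, a chain of kidney, lung and cochlear basement membranes, stood at 6.14, 8.40 and 5.84 in Empty, 18.0, 21.7 and 10.7 in SAM1 and 12.9, 13.9 and 10.2 in SAM2. These are few reads: 19 in the 3 Empty libraries (5 to 8 each), 52 in SAM1 and 26 in the 2 recovered SAM2 libraries. The ratio to Empty was 2.47 in SAM1 (95% counting interval 1.43 to 4.42) and 1.77 in SAM2 (0.941 to 3.38). The interval in SAM2 includes no difference, and although limma called it (adjusted p = 0.0367), edgeR and DESeq2 did not (adjusted p = 0.108 and 0.217). With quantile normalization neither line was called, at 0.41 in SAM1 (adjusted p = 0.267) and 0.51 in SAM2 (adjusted p = 0.178). Such intervals are exact and cover counting error only, since reads copied by PCR are not independent molecules.

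**Figure D3:**
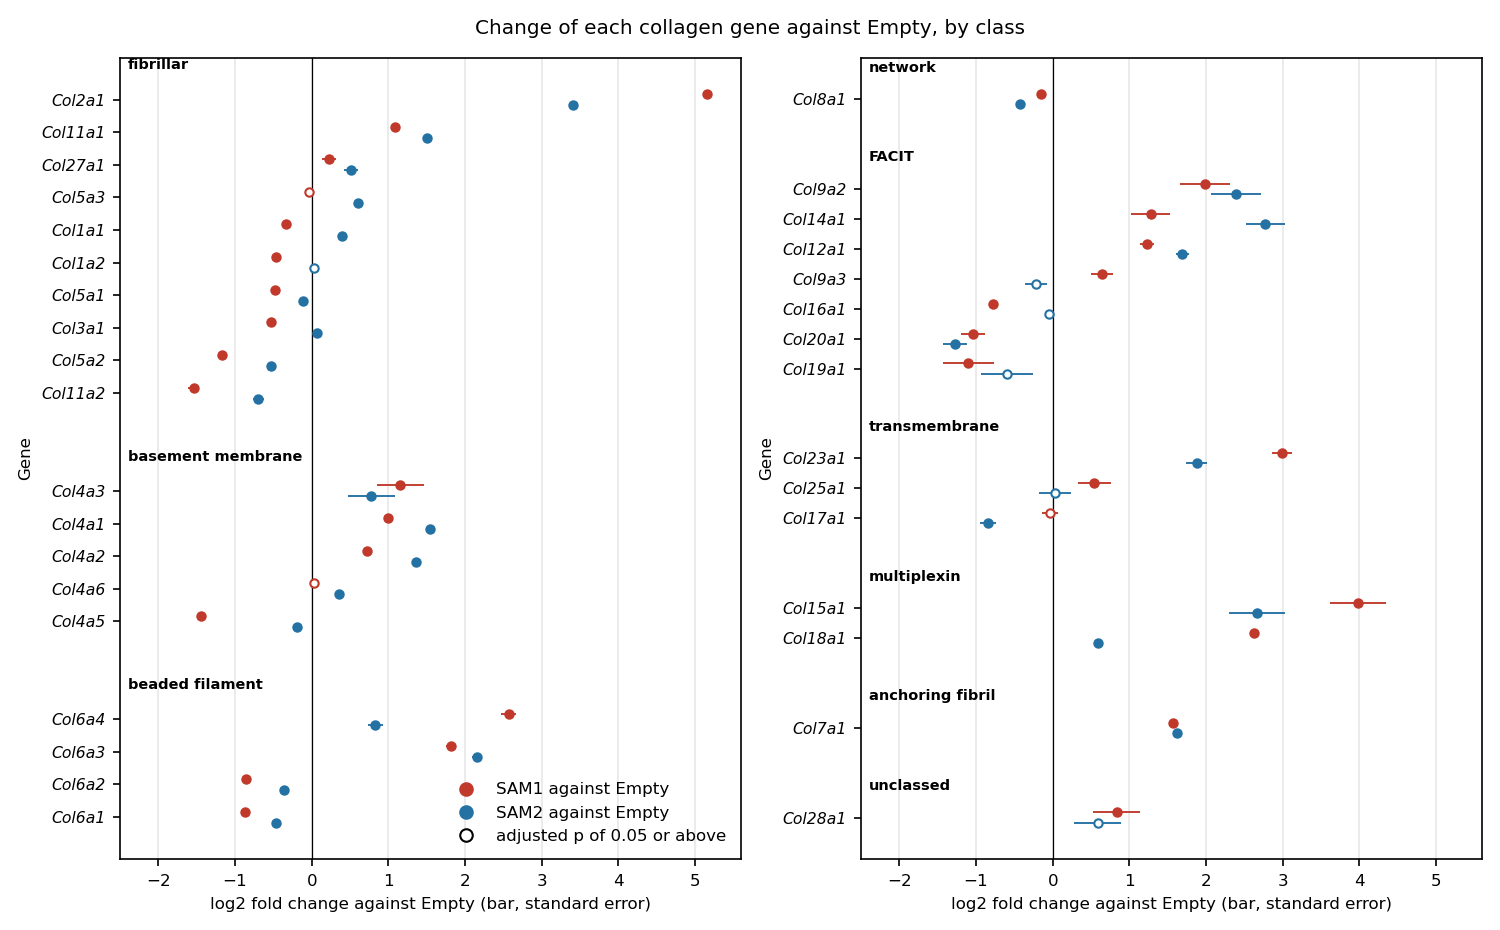
Log2 fold change of each collagen gene against Empty in SAM1 (red) and SAM2 (blue), with its standard error, by class; open points have an adjusted p of 0.05 or above. Both comparisons share the 3 Empty libraries. *Col2a1* lies farthest to the right (5.15 and 3.41), and *Col6a3* and *Col6a4* lie opposite to *Col6a1* and *Col6a2*.

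Type VI collagen is assembled from the products of *Col6a1* and *Col6a2* and a longer chain from *Col6a3* or one of the related genes. *Col6a1* (chr10:76543440-76562283) had 35620.3, 33475.5 and 33835 in Empty, 18905, 18317 and 18998 in SAM1, and 24644, 24635.5 and 24992 in SAM2. It was lower by 0.87 (SE 0.029, adjusted p = 1.45e-11) in SAM1 and 0.47 (SE 0.029, adjusted p = 9.71e-09) in SAM2, as log2 fold changes of −0.87 and −0.47. *Col6a2* (chr10:76429660-76459549), 83890 bases away, had 18527, 17313 and 17641 in Empty, 9984, 9638 and 9974 in SAM1, and 13829, 13752 and 13901 in SAM2. Its log2 fold changes were −0.85 (SE 0.030, adjusted p = 2.23e-11) and −0.37 (SE 0.030, adjusted p = 1.44e-07). *Col6a3* (chr1:90693645-90771780) had 3029, 2482 and 2696 in Empty, 9984, 8759 and 10098 in SAM1, and 12276.5, 11749 and 12519 in SAM2. Both lines lay far above Empty, 3.51-fold in SAM1 and 4.45-fold in SAM2, with log2 fold changes of 1.81 (SE 0.066, adjusted p = 3.30e-11) and 2.16 (SE 0.066, adjusted p = 9.77e-12). *Col6a4*, an alternative to *Col6a3* in the trimer, had 73.7, 94.5 and 84.1 in Empty, 489.8, 499 and 517 in SAM1, and 159, 149 and 141 in SAM2. It was highest in SAM1 (2.57, SE 0.094, adjusted p = 3.49e-11) and intermediate in SAM2 (0.83, SE 0.094, adjusted p = 3.60e-06). All 4 type VI genes listed were called in both lines, where 74.3% and 70.5% of all genes were called, and in each line the chains of one trimer had opposite signs.

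The ratio between chains of one type was computed in each library from normalized counts per kb of canonical transcript, as a description with no test. *Col6a1* to *Col6a2* was 2.80 ± 0.012 (SD, n = 3) in Empty, 2.77 ± 0.0083 in SAM1 and 2.61 ± 0.012 in SAM2, so that these chains kept nearly the same proportion while both fell. *Col6a3* to *Col6a2*, a pair chosen after its values were seen, was 0.10 ± 0.0066 in Empty, 0.638 ± 0.037 in SAM1 and 0.577 ± 0.016 in SAM2. *Col4a1* to *Col4a2* was 1.24 ± 0.010, 1.505 ± 0.018 and 1.40 ± 0.00097 in the same order. *Col4a5* to *Col4a6* was 13.1 ± 0.45, 4.69 ± 0.17 and 8.98 ± 0.50. *Col5a1* to *Col5a2* was 0.492 ± 0.0070, 0.795 ± 0.011 and 0.658 ± 0.012. *Col11a1* to *Col11a2* moved most among the planned pairs, from 0.992 ± 0.047 in Empty to 6.16 ± 0.20 in SAM1 and 4.56 ± 0.18 in SAM2. *Col1a1* to *Col1a2* was 0.842 ± 0.021, 0.925 ± 0.015 and 1.08 ± 0.014. With the length of all exons of a gene instead, it was 1.80, 1.97 and 2.30, so only the shift between groups and not the proportion of the chains can be read from it. Groups did not overlap in any of these 7 ratios. *Col8a1* to *Col8a2* could not be given, since *Col8a2* was not analysed here.

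**Figure D4:**
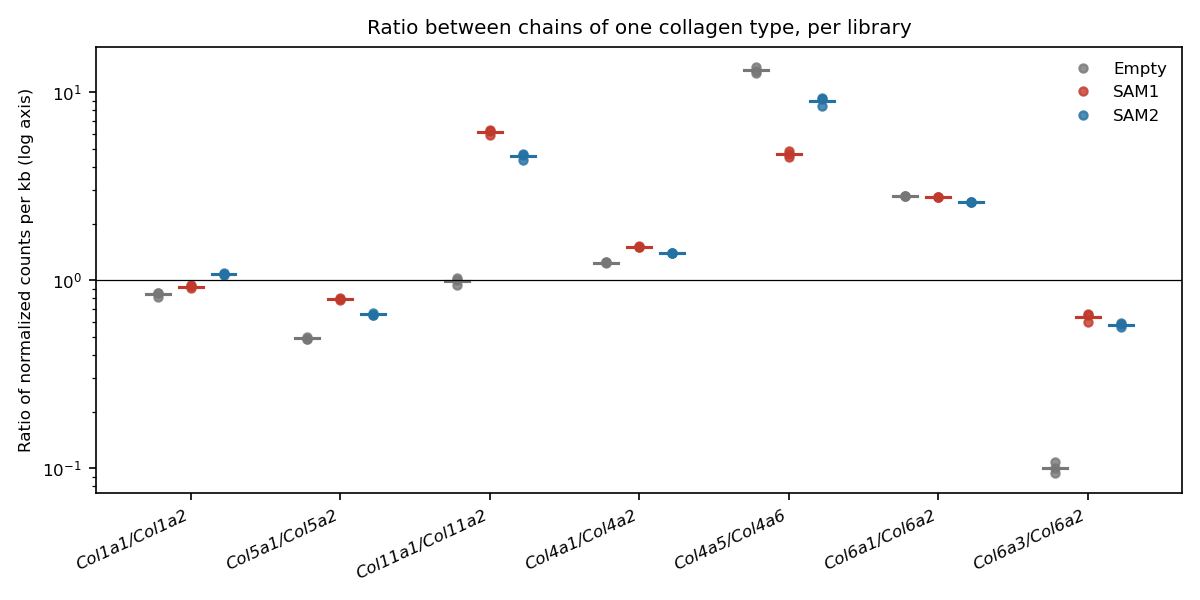
Ratio of normalized counts per kb (log axis) between chains of one collagen type, in each library (points) with the group mean (short line, n = 3). The *Col6a1* to *Col6a2* ratio stays between 2.61 and 2.80 in mean, whereas *Col11a1* to *Col11a2* rises from 0.992 to 6.16 and 4.56 and *Col6a3* to *Col6a2* from 0.10 to 0.638 and 0.577.

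Per kb of canonical transcript, *Col1a2* and *Col1a1* led the collagen genes in every group, with 44334 ± 1388 (SD, n = 3) and 37363 ± 2029 normalized counts per kb in Empty. Below them in Empty came *Col6a1* (8368 ± 280.1), *Col5a2* (7825 ± 70.8), *Col3a1* (4583 ± 111), *Col5a1* (3851 ± 85.2) and *Col4a1* (3704 ± 132). In SAM1 and SAM2 *Col4a1* and *Col4a2* ranked 3 and 4, with 7408 ± 177 and 4924 ± 176 per kb in SAM1 and 10762 ± 151 and 7678 ± 112 in SAM2. *Col2a1* moved from rank 21 in Empty (35.0 ± 0.91 per kb) to rank 11 in SAM1 (1251.5 ± 20.9) and rank 16 in SAM2 (374 ± 9.84). In Empty, the difference between *Col5a1* and *Col4a1* and that between *Col6a2* (2986 ± 105) and *Col4a2* (2985 ± 92.3) did not exceed their spread. The order depended on the length used: over all exons of a gene, *Col1a1* (33739) led *Col1a2* (18782) in Empty, *Col3a1* (2481) fell below *Col5a1*, *Col4a1* and *Col4a2*, and *Col4a2* (2805) lay above *Col6a2* (1621).

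Among the other classes, *Col18a1* (chr10:76888012-77002390), a multiplexin of basement membranes and the source of endostatin, had 365, 360.3 and 342 in Empty, 2268, 2093 and 2274 in SAM1, and 533, 551 and 519.6 in SAM2. It was 6.21-fold higher in SAM1 and, at a mean of 534 against 356, also higher in SAM2 (log2 fold changes 2.63 and 0.59, SE 0.050 each, adjusted p = 6.75e-14 and 2.23e-07). *Col15a1*, the other multiplexin, had 2.05, 2.10 and 8.18 in Empty, 71.2, 66.2 and 69.3 in SAM1, and 25.7, 34.3 and 22.3 in SAM2. Its Empty level rests on 11 reads over 3 libraries, and the ratio to Empty was 17.5 in SAM1 (95% counting interval 9.56 to 35.5) and 7.16 in SAM2 (3.74 to 15.1). Both multiplexins were higher in SAM1 than in SAM2, by 2.05 (adjusted p = 3.00e-12) for *Col18a1* and 1.32 (adjusted p = 0.00690) for *Col15a1*, as SAM2 minus SAM1 values of −2.05 and −1.32.

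*Col7a1* (chr9:108782647-108813943), whose product forms the anchoring fibrils of skin, had 584, 627 and 537 in Empty, 1696, 1705 and 1761 in SAM1, and 1822, 1796 and 1776 in SAM2. It was about equally raised in SAM1 (1.56, SE 0.051, adjusted p = 1.06e-11) and SAM2 (1.63, SE 0.051, adjusted p = 1.18e-11), and their difference did not pass the test (0.063, SE 0.051, adjusted p = 0.2995). The transmembrane gene *Col23a1* had 35.8, 34.7 and 26.9 in Empty, 264, 248 and 277 in SAM1, and 134.5, 102 and 129 in SAM2. Its log2 fold changes were 2.99 (SE 0.14, adjusted p = 2.71e-10) and 1.88 (SE 0.14, adjusted p = 4.12e-08). *Col17a1*, a hemidesmosomal collagen of epithelia, ranged from 102 to 116 in Empty, 98.7 to 117 in SAM1 and 58.4 to 63.1 in SAM2. *Col25a1* was at 19.96 to 31.7, 35.1 to 36.1 and 19.5 to 29.7 in the 3 groups. *Col28a1* was at 5.84 to 14.7, 19.7 to 20.5 and 15.8 to 18.8.

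Of the 7 FACIT genes, 4 were called higher and 3 lower in SAM1, and 3 higher and 1 lower in SAM2. *Col9a2* and *Col14a1*, among those called higher in both lines, passed the authors' filter only through the other groups. Of all genes, 37.3% were called higher and 36.9% lower in SAM1, and 35.2% and 35.3% in SAM2. *Col12a1*, a FACIT of dense connective tissue, had 5780.03, 4354 and 5069 in Empty, 12248, 10487 and 12793 in SAM1, and 16549, 15534 and 16715 in SAM2. Its log2 fold changes were 1.23 (SE 0.088, adjusted p = 2.93e-08) and 1.69 (SE 0.088, adjusted p = 1.60e-09). *Col16a1*, the other abundant FACIT, ranged from 6807 to 7625 in Empty, 4035 to 4191 in SAM1 and 6792 to 6867 in SAM2, so that SAM1 was lower (−0.77, SE 0.040, adjusted p = 1.11e-09) and SAM2 overlapped Empty. *Col14a1*, a FACIT of skin and tendon, had 8.18, 7.35 and 4.67 in Empty, 19.9, 12.8 and 20.5 in SAM1, and 55.4, 46.4 and 51.0 in SAM2. From 19 reads in Empty, the ratio was 2.61 in SAM1 (95% counting interval 1.52 to 4.66) and 7.14 in SAM2 (4.35 to 12.3). With quantile normalization the log2 fold change in SAM1 fell from 1.28 to 0.57 and was not called (adjusted p = 0.0555). *Col9a2*, a chain of cartilage type IX collagen, had 2.05, 3.15 and 1.17 in Empty, 11.4, 9.87 and 11.7 in SAM1, and 15.8, 13.9 and 14.8 in SAM2. Its 6 Empty reads gave ratios of 5.11 (2.12 to 14.9) and 6.67 (2.74 to 19.6).

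*Col20a1*, a little-studied FACIT, had 129.9, 89.3 and 93.5 in Empty, 55.1, 49.4 and 44.9 in SAM1, and 38.6, 45.4 and 41.8 in SAM2. Both lines lay below Empty (−1.04 and −1.28, SE 0.16 each, adjusted p = 5.00e-05 and 8.10e-06). *Col19a1* had 18.4, 17.9 and 19.9 in Empty, 12.3, 4.94 and 8.79 in SAM1, and 7.91, 13.9 and 15.8 in SAM2. It was called lower in SAM1 (−1.10, SE 0.34, adjusted p = 0.00977) and not in SAM2 (−0.59, SE 0.34, adjusted p = 0.134), and the 7 listed genes within 2 Mb had medians of −0.75 and −0.59. *Col9a3* ranged from 63.0 to 87.6 in Empty, 108 to 136 in SAM1 and 63.1 to 76.1 in SAM2. *Col8a1*, the network-forming collagen of vessel walls and cornea, was at 10177 to 10674, 9169 to 9533 and 7695 to 7920, and was called lower in both lines (−0.15 and −0.43, SE 0.029 each, adjusted p = 0.000325 and 2.39e-08).

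In the comparison the study's methods state, the 6 libraries labelled Hnrnpk_SAM against the 3 Empty libraries, 15 collagen genes were called higher, 7 lower and 12 were not called. Without the 4 low members named above, 11 were called higher and 7 lower, 18 of 30 in all. Of all genes, 53.9% were called, 26.8% higher and 27.0% lower. Libraries did not overlap for 24 members (20 of 30 without the 4 low members), against 53.1% of all genes. A log2 fold change of at least 1 in size came with 15 calls (12 of 30 without the 4), against 12.7% of all genes. The spread in this comparison includes the difference between SAM1 and SAM2. *Col1a1* (0.027, SE 0.21, adjusted p = 0.924), *Col1a2* (−0.22, SE 0.15, adjusted p = 0.253) and *Col3a1* (−0.24, SE 0.17, adjusted p = 0.278) were not called, and the small *Col1a1* value turned negative without Empty replicate 3 or without any one SAM2 library. *Col4a5* was not called either (−0.81, SE 0.36, adjusted p = 0.0803), although each line was called against Empty, and it was called without SAM2 replicate 1 (−0.94, adjusted p = 0.0477) or replicate 3 (−0.95, adjusted p = 0.0441). The smallest adjusted p among the 34 were those of *Col7a1* (1.59, SE 0.054, adjusted p = 3.77e-08) and *Col6a3* (1.99, SE 0.12, adjusted p = 1.09e-06). Calls of *Col18a1* (1.61, adjusted p = 0.0405) and *Col5a1* (−0.29, adjusted p = 0.0433) were lost on leaving out any one Empty or SAM1 library (adjusted p 0.0659 to 0.106 and 0.0643 to 0.122). Those of *Col27a1* (0.37, adjusted p = 0.0242), *Col6a4* (1.70, adjusted p = 0.0167) and *Col4a3* (0.97, adjusted p = 0.0156) were lost without Empty replicate 1 or without Empty replicate 3.

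The genes that make and handle collagen were taken from a list of 55, of which 52 were present in the table. Between SAM1 and Empty 13 were called higher and 32 lower, between SAM2 and Empty 19 higher and 23 lower, and between SAM2 and SAM1 33 were higher in SAM2 and 10 lower. The shares of all genes called higher and lower were 37.3% and 36.9%, 35.2% and 35.3%, and 31.1% and 29.2% in the same order. The medians were −0.24, −0.034 and 0.22, against 0.0093, −0.0015 and −0.0075 over all genes. Of the 17 folding and modification genes, 15 were called lower and 1, *P4ha2*, higher in SAM1, where 36.9% of all genes were called lower. In SAM2 9 were lower and 5 higher.

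*Serpinh1*, the collagen chaperone HSP47 of the endoplasmic reticulum, fell from a mean of 73014 in Empty to 37057 in SAM1 and 59654 in SAM2, with log2 fold changes of −0.98 (SE 0.025, adjusted p = 8.40e-13) and −0.29 (SE 0.025, adjusted p = 1.90e-07). *P4hb*, the shared subunit of prolyl 4-hydroxylase, was at −0.62 and −0.59 (SE 0.029 each), while the catalytic subunit gene *P4ha2* was at 0.70 and 0.95 (SE 0.032 each). *P3h2*, a prolyl 3-hydroxylase that acts on type IV collagen, was lower in SAM1 and higher in SAM2, with means of 216 in Empty, 129.5 in SAM1 and 530.5 in SAM2 and log2 fold changes of −0.73 and 1.30 (SE 0.087 each, adjusted p = 5.07e-06 and 2.16e-08). Of the 6 export genes, 3 were called in each line, a smaller share than the 74.3% and 70.5% of all genes called, and no log2 fold change exceeded 0.32 in size.

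Procollagen is trimmed outside the cell by proteinases, and these genes moved apart. *Bmp1*, which removes the C-propeptide of fibrillar collagens, was 2.83-fold higher in SAM1 and 2.87-fold higher in SAM2 (log2 fold changes 1.499 and 1.52, SE 0.029 each, adjusted p = 6.85e-14 and 1.14e-13). *Pcolce2*, an enhancer of that cleavage, was higher by 2.98 and 2.39 (SE 0.043 each). *Adamts2*, the N-propeptidase, was lower (−1.51 and −0.63, SE 0.057 each), while *Adamts14* of the same family was higher (1.17 and 1.79, SE 0.067 each). Among the lysyl oxidases, which crosslink fibrils, *Lox* fell from a mean of 123570 normalized counts in Empty to 56485 in SAM1 and 81236 in SAM2 (−1.13 and −0.60, SE 0.034 each). *Loxl2*, known for crosslinking type IV collagen, rose from 865 to 5342 and 15077, with log2 fold changes of 2.62 and 4.12 (SE 0.032 each, adjusted p = 1.50e-15 and 2.15e-17). *Loxl1* was at −0.82 and −0.29 and *Loxl3* at 0.14 and −0.27, and *Loxl4* was not called in either line. *Loxl2* and the type IV genes *Col4a1* and *Col4a2* were thus all highest in SAM2 and lowest in Empty. *Col6a3*, *Col11a1* and *Col12a1* had the same order, and the type IV gene *Col4a5* did not.

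Of the 10 genes of proteins that bind fibrils, 2 were called higher and 8 lower in SAM1, against 37.3% and 36.9% of all genes. In SAM2 4 were called higher and 3 lower, so that the share called there was near the 70.5% of all genes. *Dcn* (decorin) had log2 fold changes of −2.12 and −2.22 (SE 0.031 each), *Postn* (periostin) −1.37 and −0.22 (SE 0.031 each), and *Thbs2* (thrombospondin) 1.11 and 1.06 (SE 0.033 each). *Lum* and *Fmod*, small proteoglycans, were lower in SAM1 (−1.98 and −1.97), from means of 48.5 and 112 in Empty, and not called in SAM2 (−0.017 and 0.042). Among the 8 receptor and uptake genes, *Itga11*, an integrin subunit that binds fibrillar collagen, was at −1.60 and −0.59 (SE 0.051 each), and *Itga1*, a subunit with preference for type IV collagen, at 1.71 and 2.36 (SE 0.076 each). *Ddr2*, a receptor kinase for fibrillar collagen, was at −0.80 and 0.16 (SE 0.052 each), and *Mrc2*, an endocytic collagen receptor, at −0.99 and −0.62 (SE 0.031 each).

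**Figure D5:**
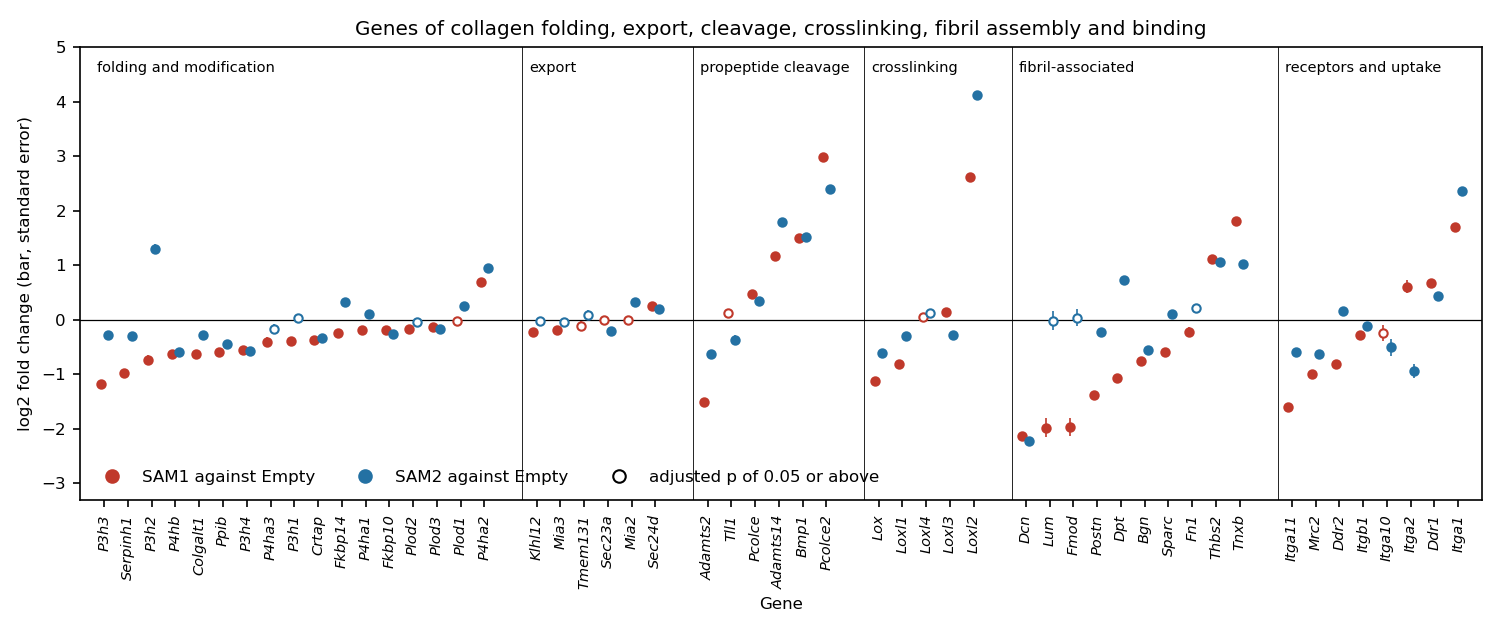
Log2 fold change against Empty in SAM1 (red) and SAM2 (blue), with standard errors, of 52 genes that fold, export, cleave, crosslink or bind collagens; open points have an adjusted p of 0.05 or above. Folding genes lie mostly below 0 in SAM1, and *Loxl2* (2.62 and 4.12) and *Pcolce2* (2.98 and 2.39) lie highest.

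Markers of other cell types that make basement membrane or cartilage collagens also differed between the groups. All 5 smooth muscle markers were present, 5 were called higher in SAM1 and 4 in SAM2 (37.3% and 35.2% of all genes were called higher), and their sum was 56854 to 61008 in Empty, 113117 to 122542 in SAM1 and 95206 to 96899.9 in SAM2. *Cnn1* (calponin) was at 3.78 and 3.38 and *Acta2* (smooth muscle actin) at 1.40 and 1.19. Of the endothelial list 4 of 5 were present, with a sum of 301 to 357 in Empty, 4613 to 4988 in SAM1 and 638 to 689 in SAM2. *Kdr*, a VEGF receptor, held most of each sum, at means of 211, 4693 and 536 (log2 fold changes 4.48 and 1.35). *Cdh5* (VE-cadherin) had log2 fold changes of −0.26, not called, and −0.63, called lower. *Tek* (the angiopoietin receptor) had −0.30, not called, and 0.89, called higher (adjusted p = 0.000894). *Pecam1* was at means of 12.9, 29.4 and 12.0. Osteoblast markers were present for 3 of 6, all called higher in both lines against the same 37.3% and 35.2% of all genes. Their sums were 27955 to 29092, 61016 to 63903 and 35394 to 35998, mostly *Spp1* (osteopontin). The osteoblast marker *Sp7* (mean 2.17 in Empty) and the smooth muscle marker *Myh11* (2.85) passed the authors' filter only through the other groups, which favours a call higher. Epithelial (2 of 6), macrophage (2 of 4) and adipocyte (2 of 4) markers present in the table summed to 42.1 to 50.1, 529 to 639 and 971 to 978 in Empty, to 110.1 to 113, 753 to 800.1 and 2959 to 3380.2 in SAM1, and to 42.7 to 52.4, 652 to 689 and 1417 to 1479.9 in SAM2. The part of these markers in the values of *Col4a1*, *Col4a2*, *Col15a1* and *Col18a1* was not tested.

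Some members overlap other annotated genes, and the sources used here do not say how strand was treated when reads were counted, although the library kit keeps it. *Col4a1* and *Col4a2* share their first bases on opposite strands, and *Col4a2*, *Col4a3*, *Col5a1* and *Col16a1* each overlap a listed gene on the opposite strand as well, *Col18a1* overlaps *Slc19a1*, and *Col1a2*, *Col5a2* and *Col20a1* each overlap a listed gene on their own strand. Reads in those stretches are uncertain. The chromosomes that carry members had median log2 fold changes of at most 0.27 in size in SAM1 (chromosome 2) and 0.32 in SAM2 (chromosome 15).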

How the data were processed

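RNA-seq of MEFs gave 1 table of 15184 genes in 9 libraries. The authors aligned paired reads with TopHat2, counted them with HTSeq on GRCm39 (GENCODE vM29), normalized with DESeq2 and kept genes above 10 in at least 30% of samples, and the deposited signal is the resulting normalized count. Groups follow the labels. Differences were tested with limma 3.58.1 (R 4.3.3, trended empirical Bayes) on log2 of the value plus 1, a scale that understates changes of low genes, with Benjamini-Hochberg adjustment over all genes and a threshold of 0.05. SAM1, SAM2 and Empty entered a 3-group fit, and the 6 libraries labelled Hnrnpk_SAM were set against 3 Empty in another. The code was tested on simulated data. Values in 8 libraries were whole multiples of 1 read (tolerance 0.01), and edgeR 4.0.16 and DESeq2 1.42.0 were run on those reads as alternatives. The library SAM2 replicate 1 was left out of them, since its reads were not recovered. Every library's value is given for fibrillar, basement membrane and *Col6a1* to *Col6a3* genes and for other members called with a log2 fold change of at least 1 in size, and other members by range. Promoter windows came from RefSeq (GRCm38.p6) and coordinates from GENCODE vM39 (GRCm39). The members, gene lists and tests were chosen with earlier results of these data known.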

Additional observations from a re-analysis of the deposited data

Results flagged for a closer look

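The change against Empty differed between SAM1 and SAM2 for 23 of the 28 collagen genes whose values are given by library. The test was that of SAM2 against SAM1 in limma (adjusted p below 0.05 over all genes). Some of the 28 were picked for a large change against Empty in these data, so their count has no fair background. Over all 34 members 27 were called, and 25 of 30 without the 4 low members, against 60.3% of all genes. Values are log2 differences, SAM2 minus SAM1. Among fibrillar genes the difference was 0.73 for *Col1a1*, 0.51 for *Col1a2*, 0.60 for *Col3a1*, 0.36 for *Col5a1*, 0.63 for *Col5a2*, 0.64 for *Col5a3*, 0.42 for *Col11a1* and 0.85 for *Col11a2*. It was 0.29 for *Col27a1*, a call lost under edgeR (adjusted p = 0.0559), under DESeq2 (adjusted p = 0.106) and without SAM1 replicate 1 or SAM2 replicate 1. *Col2a1* went the other way, with −1.74. Among basement membrane genes the difference was 0.54 for *Col4a1*, 0.64 for *Col4a2*, 1.25 for *Col4a5* and 0.32 for *Col4a6*. Among type VI genes it was 0.40 for *Col6a1*, 0.49 for *Col6a2*, 0.34 for *Col6a3* and −1.74 for *Col6a4*. The FACIT genes *Col12a1* and *Col14a1* gave 0.46 and 1.49. The multiplexins *Col15a1* and *Col18a1* gave −1.32 and −2.05, and the transmembrane gene *Col23a1* gave −1.11.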

How the results depend on the processing

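No count of called collagen genes moved by more than 1.5 times under any alternative. The count was 24 to 31 for SAM1 against Empty, 24 to 30 for SAM2 against Empty, 25 to 29 for SAM2 against SAM1 and 16 to 24 for both lines against Empty. Some alternatives held fewer genes: of the 27 with a mean value of at least 50, 24, 24, 25 and 18 were called in that order. The count called higher in SAM1 fell from 18 to 12 of 34 with quantile normalization. Leaving out 1 library in turn gave 28 to 31, 26 to 30, 26 to 28 and 16 to 24. Of 1772 values of named collagen genes under the alternatives, 1700 kept their direction and their side of the threshold. Quantile normalization turned the direction of *Col1a1* in SAM1 (0.074), *Col1a2* in SAM2 (−0.034), *Col4a6* in SAM1 (−0.00077) and *Col5a1* in SAM2 (0.089), and of the SAM2 minus SAM1 difference of *Col20a1* (0.094) and *Col4a3* (0.0997). The cause was not tested. For both lines against Empty, *Col1a1* ranged from −0.053 to 0.107 with 1 library left out. Depth limits the 4 genes with 1 to 8 reads in each Empty library.

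With the replicate number as a block, 31, 28, 28 and 19 collagen genes were called in the same order of comparisons. The block ended the calls of *Col5a1*, *Col18a1* and *Col27a1* for both lines against Empty (adjusted p = 0.0879, 0.0853 and 0.0552), and 109 of 112 values kept their call. The labels do not say that a number marks a shared animal, batch or day. Deviations of same-numbered libraries correlated at a mean of 0.053 over 9 pairs (0.0024 to 0.117), and pairs with different numbers at up to 0.046. By the mean correlation with each number all 9 libraries were closest to their own, a hint from the data and not from the design, but by single pairs SAM2 replicate 2 correlated most with SAM1 replicate 1.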
